A study of Arabidopsis thaliana with 12 samples.

Results

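Of the 3439 probes on these arrays, 870 list 2 or more genes in the platform annotation. The probes described here are the 155 several-gene probes whose signal differed between the psae2 mutant and the wild type (WT) of Arabidopsis thaliana. They were chosen by the measured psae2 minus WT difference itself. The 80 several-gene probes with the highest mean WT intensity were set aside, which left 790. Of these, a probe was kept if its mean log2 difference was at least 0.35 in size and had the same sign in all 3 pairs of sample numbers. The signal of such a probe cannot be assigned to any 1 of its listed genes, so every value below belongs to a probe, and the genes are given as its annotation.

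RNA was measured in 6 samples of the WT, ecotype Columbia 0, and in 6 of psae2 in the same ecotype, a mutant that by its label has no PSI-E2 protein. The samples of each genotype are numbered 1 to 6. The labels do not give the kind of psae2 allele, the number of plant lines, the tissue, the age or the growth conditions, so no tissue markers were checked. In RNA from many cells, fewer cells of a type and less RNA per cell cannot be told apart. Deposited intensities summed to 2972 to 3610 per array. Precision is limited by the number of arrays. Within a genotype the samples numbered 1 and 2, 3 and 4, and 5 and 6 deviated together and were averaged, so a mean is over 3 pair means (SD, n = 3), on the normalized log2 scale unless an intensity is named.

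PSI-E2 is a small subunit on the stromal side of photosystem I, where it helps ferredoxin to dock and accept electrons. Many Arabidopsis genes belong to families that arose by gene, segment and genome duplication. Their members can be alike enough for a probe to match more than 1 transcript, and the signal is then a mixture whose make-up is not known.

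The size and sign rule kept 155 of the 790 probes, or 19.6%, against 20.6% of all 3439 probes. It kept 20.2% of the 692 probes that list 1 gene and 20.9% of the 1877 with no listed gene. The share among several-gene probes therefore lay near that of the whole array. Over all 3439 probes the rule kept 372 higher and 337 lower in psae2, or 10.8% and 9.8%. Of the 155, 87 were higher in psae2 and 68 lower. The split depended on scaling. Applied to the intensities as deposited, without scaling between arrays, the same rule kept 198 higher and 30 lower probes. With array medians set equal it kept 74 higher and 83 lower. As deposited, the median of all tested probes was higher in psae2 by 0.17 on the log2 scale, and directions given here are relative to that common shift. The sign of the mean difference of each of the 155 was the same under all 3 scalings. Of the 155, 117 still passed the rule as deposited and 132 with array medians set equal.

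The 155 probes list 357 different genes, of which 356 matched the reference table. At least 1 gene with a name beyond its locus number was listed by 26 of the probes, 11 higher and 15 lower in psae2. For the other 129 the sources used here hold locus numbers only, and no role is given. Of the 155, 71.0% list 2 genes, 21.9% list 3 and 7.1% list 4, against 75.1% with 2 genes and 4.25% with 4 among the other 635 several-gene probes. In 24 of them (15.5%) at least 1 pair of listed genes lay within 10 genes of each other on a chromosome, against 16.2% of the 635. All listed genes were on 1 chromosome in 28.4% of the 155 and in 28.7% of the 635.

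The differences ran from 0.35 to 2.25 among the higher probes, with a median of 0.51, and from -0.35 to -1.57 among the lower ones, with a median of -0.58. At least 2-fold differences were found for 6 higher and 9 lower probes. The floor of detection is the 5th percentile of the positive intensities of an array. Of the higher probes, 17 were under the floor in at least 1 WT sample, and of the lower probes 6 were under it in at least 1 psae2 sample. In 132 of the 155, all 12 samples were above it. In 66 of the 155, all samples of one genotype lay above all samples of the other, which held for 10.9% of all probes. Nothing can be read from that count, since the same differences chose the probes.

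No probe of the array lists PSAE-2 (AT2G20260), the gene for PSI-E2, so the mutation could not be checked in these values. Among the genes within 10 genes of it, only AT2G20270, the gene next to it, was listed, by probes 891 and 2602. Both list it together with GrxC5, which encodes a glutaredoxin, an enzyme that reduces disulfides with glutathione. Probe 891 had intensities of 0.480 to 0.610 in the WT (median 0.527) and 0.896 to 1.15 in psae2 (median 0.937). All psae2 samples lay above all WT samples. The log2 difference was 0.74, with 0.72, 0.56 and 0.94 in numbers 1-2, 3-4 and 5-6. Probe 2602 was at 0.122 to 0.233 in the WT (median 0.201) and at 0.202 to 0.321 in psae2 (median 0.257). It was also on the higher side, by 0.29, which is below the size that the rule asks for.

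Proteins of photosynthesis and of the plastid were represented in both directions. Genes of photosystems, antenna, electron transport, the NDH complex and the Rubisco small subunit were listed by a single several-gene probe, 3446, which was lower in psae2. It lists LHCB4.1, LHCB4.2 and LHCB4.3, which encode CP29, a minor antenna protein that links photosystem II to its main light-harvesting complexes. Its intensity was 0.370 to 0.580 in the WT (median 0.473) and 0.326 to 0.389 in psae2 (median 0.347). Once normalized, the genotypes did not overlap. The difference was -0.64, with -0.73, -0.36 and -0.82 in the pairs.

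Probe 998 lists MDH, the NAD-dependent malate dehydrogenase of the plastid, which interconverts malate and oxaloacetate, together with AT3G53910. Its intensity was 0.623 to 0.787 in the WT (median 0.758) and 0.299 to 0.519 in psae2 (median 0.377), with no overlap. The difference was -1.10 and was close to equal in the 3 pairs, at -1.04, -1.07 and -1.18. The level averaged -0.40 ± 0.18 over the WT pairs and -1.49 ± 0.11 over those of psae2 (SD, n = 3).

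Probe 613 lists LIL3:1 and LIL3:2, light-harvesting-like proteins that take part in chlorophyll and tocopherol synthesis. It was at 0.909 to 1.09 in the WT (median 1.0) and at 1.48 to 1.88 in psae2 (median 1.69). All psae2 samples lay above all WT samples, and the difference was 0.67, or 0.76, 0.54 and 0.71 in the pairs. Probe 525 has the same list and differed by 0.08, so the higher signal was not seen in both probes.

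Probe 2519 lists CaS, a thylakoid protein of calcium signalling, and AT3G59780. It was at 0.232 to 0.586 in the WT (median 0.562) and at 0.149 to 0.416 in psae2 (median 0.354). The groups overlapped, and in both genotypes the pairs of numbers lay apart (SD 0.58 and 0.53). Within pairs the difference was steady, at -0.87, -0.74 and -0.69.

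Probe 615 lists COR15A and COR15B, which encode stromal proteins that accumulate in the cold. It was at 0.386 to 0.487 in the WT (median 0.436) and at 0.258 to 0.507 in psae2 (median 0.336). The groups overlapped, and the difference of -0.50 was -0.61, -0.83 and -0.06 in the pairs. The other probe with the same list, 3484, differed by -0.30.

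Probe 1796 lists the fibrillin genes FIB (FIB1a) and FBN1b, whose proteins coat the lipid droplets of plastids, with AT5G09820 and AT2G35490. It was at 0.803 to 1.03 in the WT (median 0.913) and at 0.529 to 0.894 in psae2 (median 0.789). The groups overlapped, and the mean difference of -0.39 came to -0.19 without numbers 5 and 6. Single-gene probes differed by -0.20 for AT2G35490 and 0.12 for AT5G09820.

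Among genes of the nucleus, histone genes were listed by 5 probes outside the brightest, of which 1 was kept and was lower in psae2. This was probe 3667, which lists AT5G10400 and AT5G10390, both annotated as histone 3.1. Its intensity was 0.351 to 0.490 in the WT (median 0.399) and 0.249 to 0.415 in psae2 (median 0.306). Once normalized, the genotypes did not overlap, and the difference was nearly the same in the 3 pairs, at -0.58, -0.59 and -0.60. The other 4 histone probes had differences of -0.33, 0.06, 0.05 and 0.01, and the last of them lists SDH2-1 beside a histone gene. The median of the 5 was 0.00547, beside 0 for all 790, of which 684 were above the floor in some sample.

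Probe 1268 lists PUCHI, an AP2-type factor of meristems and lateral roots, with AT1G80580 and AT1G12890. It was at 0.340 to 0.493 in the WT (median 0.400) and at 0.570 to 0.803 in psae2 (median 0.630). The groups did not overlap, and the difference was 0.53, from 0.23 in numbers 1-2 to 0.85 in numbers 5-6. Probe 3627 lists the MADS-box genes AGL54, AGL53 and AGL93, with a difference of -0.46 that became -0.27 with the floor at the 10th percentile. The single-gene probe of AGL54 (AT5G27090), 4607, differed by 0.14.

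Probe 3874 lists AKINBETA1 and KINbeta2, which encode beta subunits of the energy-sensing SnRK1 kinase. It was at 0.577 to 0.829 in the WT (median 0.668) and at 0.430 to 0.629 in psae2 (median 0.511). Once normalized the groups did not overlap, and the difference of -0.59 was even, at -0.63, -0.50 and -0.65. Probe 2246 lists IQD28 and IQD29, which encode calmodulin-binding proteins with IQ motifs. It was at 0.545 to 0.876 in the WT (median 0.690) and at 0.177 to 0.621 in psae2 (median 0.405). Normalized values did not overlap, and the difference of -1.07 became -0.70 without numbers 5 and 6. Probe 2042 lists 4 genes, among them AP2C1, a protein phosphatase that acts on MAP kinases, and was higher by 0.43 with overlapping normalized values. The single-gene probe of AT1G67820, another of its genes, went the other way, at -0.31.

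Probe 196 lists ELC and ELC-Like, genes of the endosomal sorting machinery, and AT2G38830. Its difference of -0.50 lay almost wholly in numbers 5-6, at -0.05, -0.20 and -1.24, and was -0.12 without them. Probe 2494, which lists ELC and ELC-Like alone and is 1 of the 80 brightest that were set aside, differed by -0.62, with -0.79, -0.37 and -0.69 in the pairs. Probe 1017 lists PRA1.G1 and PRA1.G2, prenylated Rab acceptors of membrane traffic, with a difference of 0.38. Probe 3818 lists CEF and AT4G32640, with a difference of -0.39 that became -0.21 with the floor at the 10th percentile. Probe 1166, which lists SAY1 among 3 genes, had a difference of 0.36 that was 0.19 without numbers 5 and 6.

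Probe 2890 lists GH9B18 and GH9B17 of glycosyl hydrolase family 9, which act on cellulose, and AT3G42155. It was at 0.0518 to 0.137 in the WT (median 0.0738) and at 0.145 to 0.246 in psae2 (median 0.188). The groups did not overlap, but 3 WT samples were under the floor, and the difference of 0.82 became 0.40 with the floor at the 10th percentile. Probe 3160, which shares both GH9B genes, differed by 0.07. Probe 1130 lists CSLC5, CSLC12, CSLC04 and ATCSLC08, the cellulose-synthase-like C genes of xyloglucan synthesis. Its difference of 0.37 was 0.16, 0.36 and 0.61 in the pairs, and the normalized groups overlapped. The 3 other probes that share any of these genes were on the lower side, with -0.19 for probe 1161, -0.33 for probe 1431 and -0.21 for probe 4030. As deposited, probe 1161 was at 0.03, probe 1431 at -0.44 and probe 4030 at -0.11. The probes that list CSLC genes thus gave no common direction.

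Probe 3970 lists LCD, an L-cysteine desulfhydrase that releases sulfide from cysteine, and AT5G26600. It was at 0.150 to 0.198 in the WT (median 0.179) and at 0.124 to 0.167 in psae2 (median 0.132). Once normalized the groups did not overlap, and the difference was -0.58, or -0.46, -0.71 and -0.56. Probe 3933 lists PGM, annotated as a phosphoglycerate mutase, an enzyme of glycolysis, and AT1G22170. Its difference was -0.41, with overlapping groups, and -0.27 without numbers 5 and 6. Probe 3746 lists TO1 and TO2, thioredoxins o, small redox proteins of the mitochondrion. Its difference of 0.63 became 0.30 with the floor at the 10th percentile, and 4 WT samples and 1 psae2 sample were under the floor. It was 0.35 without numbers 3 and 4.

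Probe 542 lists BLT, a gene of trichome branching, among 3 genes. It was at 0.706 to 1.03 in the WT (median 0.826) and at 0.425 to 0.987 in psae2 (median 0.501), with a difference of -0.59 and overlapping groups. Probe 2161, which shares the other 2 genes, differed by -0.15. Probe 2802, which lists AR781, differed by -0.55, and by -0.25 without numbers 5 and 6. Probe 2943, which lists SETH6, differed by 0.44, and by 0.25 without numbers 3 and 4.

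Ribosomal proteins, tubulins and actins, heat shock proteins and chaperonins, glutathione transferases and aquaporins had 0 probes matched by symbol or synonym. A gene with only a locus number in the reference table is missed by this search.

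Most of the largest differences belonged to probes whose genes have locus numbers only. The largest on the lower side was that of probe 2, which lists AT5G24620, AT4G36010 and AT2G17860. Its intensity was 0.222 to 0.791 in the WT (median 0.305) and 0 to 0.356 in psae2 (median 0.0957). The ranges overlapped, and 2 psae2 samples were under the floor. The level averaged -1.50 ± 0.15 over the WT pairs and -3.07 ± 0.48 over those of psae2 (SD, n = 3). The difference was -1.57, with -1.39, -1.28 and -2.04 in the pairs. With the floor at the 10th percentile it was -1.19, smaller in size than those of probes 2491 (-1.45) and 2641 (-1.39). Probe 4004, which shares AT4G36010 and AT2G17860, differed by -0.27.

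Probe 2491 lists AT5G60370 and AT3G57110 and was at 0.420 to 0.965 in the WT (median 0.595) and at 0.160 to 0.349 in psae2 (median 0.278). The groups did not overlap, and the difference was -1.45. Probe 1407 has the same list, was above the floor in 6 of 12 samples and differed by -0.15. Probe 2641 lists AT5G64110 and AT5G64100, which lie within 10 genes of each other. Its intensity was 0.323 to 0.539 in the WT (median 0.432) and 0.135 to 0.253 in psae2 (median 0.192). All psae2 samples lay below all WT samples, and the difference of -1.39 ran from -1.17 to -1.66 over the pairs.

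Probe 3121 lists AT4G10300 and AT3G04300. It was at 0.294 to 0.352 in the WT (median 0.332) and at 0 to 0.301 in psae2 (median 0.170), where 2 samples were listed at 0. The deposited ranges overlapped and the normalized ones did not. Its difference of -1.13 was uneven, with -2.01 in numbers 1-2 and -0.29 in numbers 3-4. Probe 808 lists AT1G60410 and AT1G60400 and was the ninth lower probe past 2-fold, picked out after its values were seen. Its intensity was 0.381 to 0.474 in the WT (median 0.429) and 0.204 to 0.318 in psae2 (median 0.224), and its difference of -1.03 was even, at -0.92, -1.04 and -1.13.

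In probes 1693 and 1688 the difference was almost absent from numbers 1-2. Probe 1693 (AT1G24270 and AT5G13090) was at 0.498 to 0.869 in the WT (median 0.701) and at 0.133 to 0.922 in psae2 (median 0.328). Its differences were -0.04, -1.22 and -2.08, and without numbers 5 and 6 the mean was -0.62. Probe 1688 (AT1G78110 and AT1G22230) was at 0.418 to 0.598 in the WT (median 0.446) and at 0.112 to 0.623 in psae2 (median 0.200). Its differences were -0.07, -1.36 and -1.85, and without numbers 5 and 6 the mean was -0.70. In both, the deposited psae2 values reached beyond the WT range on either side, while normalized ones reached beyond it on the lower side only.

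The largest difference of the 155 was that of probe 1432, which lists AT4G20840 and AT4G20830, within 10 genes of each other. Its intensity was 0 to 0.358 in the WT (median 0.00710) and 0.151 to 1.13 in psae2 (median 0.802). In the WT, 4 of 6 samples were under the floor and 3 of these were listed at 0, so the size of the difference depends on the floor. The difference was 2.25, with 1.64, 2.16 and 2.96 in the pairs, and 1.83 with the floor at the 10th percentile. Once normalized, psae2 sample 1 lay among the WT samples and the other 5 above all of them.

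Probe 251, which lists AT5G58930 and AT3G46990, was above the floor in every sample. Its intensity was 0.447 to 0.887 in the WT (median 0.808) and 1.7 to 2.0 in psae2 (median 1.96). All psae2 samples lay above all WT samples. The level averaged -0.47 ± 0.32 over the WT pairs and 0.89 ± 0.05 over those of psae2 (SD, n = 3), a difference of 1.36 or 2.56-fold. Probe 1942 has the same list and differed by -0.16, with 0.13, -0.30 and -0.31 in the pairs. As deposited it differed by 0.04, so its direction depended on scaling.

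Probe 119 lists AT1G73655 and AT1G18170. It was at 0 to 0.458 in the WT (median 0.121) and at 0.398 to 0.542 in psae2 (median 0.417). The psae2 values were close together and the WT values were not. The differences in the pairs were 0.06, 1.58 and 2.27, so the mean of 1.30 became 0.81 without numbers 5 and 6. Probe 2006 (AT5G05360 and AT2G38450) was at 0.0842 to 0.132 in the WT (median 0.0951) and at 0.217 to 0.338 in psae2 (median 0.235). The groups did not overlap, and the difference was 1.09. It was 0.82 with the floor at the 10th percentile and 1.34 as deposited. Probe 3643 with the same list differed by 0.01.

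Probe 3525 lists AT1G03260, AT1G22850 and AT5G19070. All 6 WT samples were under the floor, at 0.00693 to 0.0409 (median 0.0311), and all psae2 samples were above it, at 0.122 to 0.368 (median 0.166). The difference of 1.09 is taken against the floor, so its size depends on where the floor is set. With the floor at the 10th percentile the difference was 0.52. Probe 723 (AT5G27880 and AT5G01860) was at 0.00682 to 0.0854 in the WT (median 0.0569) and at 0.137 to 0.289 in psae2 (median 0.180). In the WT 4 of 6 samples were under the floor, and the difference of 1.08 became 0.48 with the floor at the 10th percentile.

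Probe 3315 lists AT3G52210 and AT3G20650. It was at 0.541 to 1.01 in the WT (median 0.673) and at 1.12 to 1.72 in psae2 (median 1.29). The groups did not overlap, and the difference of 0.87 was even over the pairs, at 0.85, 1.05 and 0.70. Probe 4369 lists AT1G69790 and AT1G26970. It was at 0.1 to 0.314 in the WT (median 0.209) and at 0.35 to 0.516 in psae2 (median 0.405). The deposited ranges did not overlap but the normalized ones did, and the difference was 0.86.

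Other probes with the same gene list gave a further view of these signals, though from the same samples and contrast, so it is a description. There were 42 pairs of probes with identical lists in which at least 1 probe was among the 155. In 37 of them both probes were above the floor in at least 6 of 12 samples. The probes of a pair differed in the same direction in 20 pairs and in opposite directions in 17. As deposited these counts were 17 and 20, and with array medians set equal 20 and 17. The other probe thus went the same way about as often as not. Among 28 such pairs with neither probe among the 155, 18 went the same way and 10 the opposite way. These counts were 16 and 12 both as deposited and with array medians set equal.

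Both probes of a list were among the 155 in 3 cases, and in each they went in opposite directions. Probe 1432, described above at 2.25, shares its list with probe 3179. Probe 3179 was at 0.722 to 1.42 in the WT (median 0.804) and at 0.621 to 1.10 in psae2 (median 0.679). Its groups overlapped, and its difference was -0.39, with -0.43, -0.33 and -0.41 in the pairs. Probes 2760 and 3004 both list AT1G58055, AT1G58060 and AT1G58050. Probe 2760 was at 0.198 to 0.439 in the WT (median 0.281) and at 0.348 to 0.578 in psae2 (median 0.413), a difference of 0.39. Probe 3004 was at 0.372 to 0.608 in the WT (median 0.488) and at 0.272 to 0.417 in psae2 (median 0.334), a difference of -0.67. Once normalized, the groups overlapped for probe 2760 and not for probe 3004.

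The remaining such case was that of AT5G51920 and AT4G22980. Probe 419 was at 0.221 to 0.388 in the WT (median 0.329) and at 0.451 to 0.636 in psae2 (median 0.480), with a difference of 0.56 and no overlap. Probe 1400 had a difference of -0.47 with overlapping groups. In it 3 of 12 samples were under the floor, and the difference was -0.18 with the floor at the 10th percentile. A similar contrast held for probes that share AT4G31890 and AT2G25130. Probe 4102, which lists AT2G27430 as well, differed by 0.84, or 0.52 without numbers 5 and 6, and probe 1733 by -0.61. All of these opposite signs were also found as deposited and with array medians set equal.

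A single listed gene had a probe of its own in 17 further comparisons, all with that probe above the floor in at least 6 samples. The single-gene probe went the same way as the several-gene probe in 7 and the opposite way in 10. Median absolute differences were 0.163 for the single-gene probes and 0.504 for the several-gene probes, which had been chosen for size. In 1 of the 17 the single-gene probe passed the size and sign rule in the same direction, and in 0 in the opposite direction.

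The 3 pairs of sample numbers did not contribute equally. The largest of the 3 differences was in numbers 5-6 for 94 of the 155 probes (60.6%), in numbers 1-2 for 37 and in numbers 3-4 for 24. Over all 3010 probes above the floor in some sample, numbers 5-6 gave the largest difference in 49.0%. The median absolute difference of the 155 was 0.426 in numbers 1-2, 0.459 in numbers 3-4 and 0.705 in numbers 5-6, beside 0.209, 0.208 and 0.298 over the 3010. In 50 of the 155 the difference reached 0.35 in every pair, while in 97 the largest was over 2 times the smallest and in 19 over 10 times. Over the 3010 these counts were 308, 2412 and 781, and the rule itself asks for size and 1 sign. Probe 3664, which lists AT1G04140 and AT5G43930, is 1 of the 19, picked out after its values were seen. It had differences of -0.22, -0.11 and -2.47, and its mean of -0.93 became -0.16 without numbers 5 and 6. Without those numbers, 104 of the 155 still passed the rule. In 45 of the 155, the level averaged over genotypes ranged more widely between pairs of numbers than it differed between genotypes, as in 1998 of the 3010.

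The differences also followed the probe number, most in numbers 5-6. Across all probes, the correlation (Pearson's r) of a probe's psae2 minus WT difference with that of the next probe number was 0.0939 in numbers 1-2, 0.12 in numbers 3-4 and 0.395 in numbers 5-6. These are descriptions over 3438 pairs of probes on the same arrays, and probes are not independent replicates. In numbers 5-6 the value was 0.286 at a distance of 10 probes, 0.135 at 20 and -0.0406 at 50. It was 0.362 for samples 5 and 0.380 for samples 6, each taken alone. Correlations with the next probe number also appeared within a genotype. For numbers 5-6 minus 1-2 they were 0.297 in the WT and 0.542 in psae2. For numbers 3-4 minus 1-2 they were 0.251 in the WT and 0.415 in psae2. The sources used here do not say what the probe numbers stand for, and their part in the differences was not tested.

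Counts of the 155 differed between ranges of these numbers, and the same counts over all probes are not given here. Among probes 1001 to 1500, 15 were higher and 2 lower in psae2, of 74 several-gene probes, and the median difference of all probes there was 0.261 in numbers 5-6. Among probes 3501 to 4000, 4 were higher and 18 lower, of 94, and that median was -0.0413. The counts did not simply follow that median. Among probes 2001 to 2500, 14 were higher and 5 lower, of 81, at a median of 0. Among probes 2501 to 3000, 8 were higher and 8 lower, of 89, at a median of -0.0561. When the median difference of the 20 probes on each side was subtracted within each pair of numbers, the rule kept 143 probes, 71 higher and 72 lower, of which 127 were among the 155. The 155 were chosen for the size of the same difference. Much of that overlap follows from this choice, and nothing is read from it. The histone probe 3667 became -0.40 and probe 1166 with SAY1 became 0.22. Probes 2641 and 998 were at -1.36 and -1.19 after that step, and the LHCB4 probe 3446 was at -0.64.

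The rule's threshold did not mark a gap. Just inside it lay probes 101 (-0.351), 1519 (0.352) and 2713 (0.353), and just outside it probes 4583 (0.348), 2176 (0.347) and 303 (-0.347). Probe 303 lists the same genes, AT5G65840 and AT2G37240, as probe 2582, which was kept at -0.39. A further 26 several-gene probes reached 0.35 but did not keep 1 sign over the pairs, the largest of them probe 3606 at 1.07.

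The probes most like probe 1432 over the 12 samples were 4167, which lists AT2G38950 (r = 0.953), 4013 (0.940) and 619 (0.918), of which the last 2 list no gene. Those most like probe 2 were 2408, which lists AT1G59660 and AT1G10390 (r = 0.879), 1354 (0.874) and 3676 (0.868). These correlations rest on the same arrays and include the difference between genotypes.

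Fitted in limma over the 12 samples, 102 of the 155 had an adjusted p under 0.05, 63 higher and 39 lower, beside 22.3% of all 3009 entries tested. With the pairs of numbers averaged, 15 of the 155 had one, 5 higher and 10 lower, beside 2.63% of all entries. With the sample number as a block, 137 were called, beside 33.6% of all entries. Since the rule used the same difference, nothing is read from these counts.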

How the data were processed

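The deposited values are intensity values, taken as linear from their range. The sources used here do not state the authors' background correction, scaling or array chemistry. Groups and numbers came from the sample titles. Per column, values below the 5th percentile of the positive ones (0.0638 to 0.105) were raised to it, log2-transformed and quantile-normalized over all 3439 probes with limma 3.58.1 in R 4.3.3. Probes under that floor on all arrays (429) were left out of the fit, and 2 probes of 1 gene were averaged, leaving 3009 entries. The fit (lmFit and eBayes, Benjamini-Hochberg adjustment, threshold 0.05) took all 12 samples without covariates and was tested on simulated data. The simulated samples varied independently, unlike the pairs of numbers here, so the simulation cannot show how the fit behaves with such pairs. Nothing in the labels says that samples came from separate plants, so p-values cover a spread that may be technical.

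Deviations from the group mean correlated at 0.34 to 0.53 between same-numbered samples of the 2 genotypes, and 12 of 12 samples correlated best with their own number. The numbers were therefore treated as pairing the samples, from the data and not from the design. Within a genotype, samples 1 and 2, 3 and 4, and 5 and 6 correlated at 0.24 to 0.71 and others at -0.68 to -0.12. Deviations from a group mean cancel out over the group, so negative correlations within a genotype are partly built in.

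The members, gene groups and alternatives were chosen with earlier results of these data known. Probes described by rule were the 8 largest on each side, those of the gene groups (matched to symbols and synonyms) and 3 on each side of the threshold. A gene group matched by 2 probes is not reported here. The 26 with a named gene and the others were chosen after their values were seen. Names and gene order came from the reference table (assembly TAIR10.1), and roles of named genes are general background.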

Additional observations from a re-analysis of the deposited data

Results flagged for a closer look

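In 43 sets of 6 samples of a genotype, for the 22 probes described by rule, 2 samples lay apart from the rest of their set by more than the critical value of Dixon's ratio. For independent values chance alone gives about 1 in 20. Samples here were correlated within pairs of numbers, so that rate need not apply. Probe 1432 had a level of -3.08 in psae2 sample 1, where its other psae2 samples ranged from -0.92 to 0.22 (ratio 0.656). Probe 2006 had a level of -2.69 in WT sample 6, where its remaining WT samples ranged from -3.37 to -3.25 (ratio 0.822).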

How the results depend on the processing

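The count of 155 probes was 142 to 163 with 1 sample left out and 92 with a size of at least 0.5, which lowers it by construction. It was 228 as deposited, 157 with array medians set equal, 140 with the floor at the 10th percentile and 117 with an offset instead of the floor. It was 210 without numbers 1-2, 187 without numbers 3-4 and 143 without numbers 5-6, where 1 sign was asked of fewer pairs. The 102 calls among the 155 in limma became 15 with pairs of numbers averaged, 55 at an adjusted p under 0.01, 47 without samples 3 and 4 of both genotypes, and 92 to 110 with 1 sample left out. A stricter threshold and fewer samples lower a count by construction, and beyond that the cause was not tested. With the replicate number as a block, 137 were called, beside 1010 of all 3009 entries, and without samples 3 and 4 the count over all was 284 of 3000, against 671 in the fit of 12 samples. For the 22 probes described by rule, differences were recomputed under 20 settings. None of these changed sign, 415 moved by less than the spread between pairs and 25 by more, most often with an added offset instead of the floor (5) or with values as deposited (4). With the floor at the 10th percentile 154 of the 155 kept their sign. Leaving out pairs of numbers and subtracting neighbouring probe numbers were chosen after seeing the data. Low signal limits the probes with samples under the floor, 18 in the WT and 8 in psae2, which leaves 132 above it throughout.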
